A study of Mus musculus with 8 samples.

Results

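The 31 genes described here encode the enzymes, carriers and regulators of cholesterol and fatty acid synthesis, and were chosen by name from the 55450 genes of a read count table of sorted mouse neutrophils. They are 5 genes of the SREBP system, 6 genes of the mevalonate steps, 10 genes of the steps from squalene to cholesterol, 1 sterol carrier gene, 2 genes of fatty acid synthesis itself, 4 desaturase genes and 3 elongase genes. All 31 were among the 15975 genes with enough reads to be tested, and all 31 lay above the count minimum in both samples of at least 2 groups. For Elovl6 these were the 2 CD71+ groups alone, and for Fdps the 2 culture groups alone.

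The study sorted neutrophils for surface CD71, a receptor for the iron carrier transferrin, and sequenced total RNA from 8 samples in 4 groups of 2. Tumour CD71+ and tumour CD71- neutrophils came from mouse brain tumours whose labels name SB28, a mouse glioma cell line. Culture CD71+ and culture CD71- neutrophils were grown in vitro, with naive bone marrow as their source. Neither mouse strain, age nor sex is stated in the labels used here, and the labels do not say whether samples came from separate animals or cultures, so the p-values cover the spread among the sequenced samples alone, which could be technical. The tumour and culture groups differ both in where the cells matured and in how they were obtained, and these cannot be told apart.

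Mammalian cells make cholesterol from acetyl-CoA through mevalonate, squalene and lanosterol, and make fatty acids from malonyl-CoA before lengthening and desaturating them. Both routes are switched on by the SREBP transcription factors, which Scap escorts out of the endoplasmic reticulum when sterol is scarce and which the Insig proteins hold back when sterol is plentiful. Neutrophils mature from rapidly dividing precursors in the bone marrow, where new membrane is in demand, and stop dividing as they ripen.

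Levels are given as CPM, read counts relative to library size, with library sizes scaled by TMM to allow for a few very abundant genes, and changes as log2 fold changes with their standard error (SE). A gene was called changed at a Benjamini-Hochberg adjusted p under 0.05 over all 15975 genes in edgeR's quasi-likelihood test. Total counts ran from 9598959 to 22615813 reads per sample, and a count of 0 allowed a level of up to 0.0915 to 0.419 CPM, depending on the sample. The gene of the sorted protein, Tfrc, had 103 and 108 CPM in tumour CD71+ samples, against 187 and 145 CPM in tumour CD71- samples, and 116 and 115 CPM in culture CD71+ samples, against 130.5 and 94.3 CPM in culture CD71- samples; it was lower in CD71+ cells of the tumour (log2 fold change -0.65 ± 0.19 (SE), adjusted p = 0.0134), and its difference in culture did not pass (log2 fold change 0.03 ± 0.19 (SE), adjusted p = 0.94). Exons of Cyp51, Elovl1, Elovl6, Fdft1, Hmgcs1, Idi1, Lss, Scap and Srebf1 overlap a gene on the other strand over 34 to 985 bases, and without the strand setting of the counting those reads are uncertain. In bulk RNA, fewer cells of a type and less RNA per cell cannot be told apart.

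The sorted cells carried neutrophil transcripts in all 8 samples, but many markers of other cells moved with CD71. The summed level of 25 mature neutrophil markers was 26970 and 26880 CPM in tumour CD71+ samples, against 57930 and 57310 CPM in tumour CD71- samples, and 6018 and 4744 CPM in culture CD71+ samples, against 11390 and 10410 CPM in culture CD71- samples. Of these markers 20 were lower and 0 higher in tumour CD71+ cells, and 13 were lower and 0 higher in culture CD71+ cells. The defining gene Ly6g averaged 7.55 CPM in tumour CD71+ and 11.7 CPM in tumour CD71- samples, and 19.7 CPM in culture CD71+ and 69.2 CPM in culture CD71- samples. For 14 genes of dividing cells the sum was 246.5 and 311.2 CPM in tumour CD71+ samples, against 157.4 and 134.7 CPM in tumour CD71- samples, and 275.5 and 274.8 CPM in culture CD71+ samples, against 136.6 and 170.3 CPM in culture CD71- samples. The sum of 20 macrophage and monocyte markers was 5399 and 5876 CPM in tumour CD71+ samples, against 1357 and 1385 CPM in tumour CD71- samples, and 3431 and 2758 CPM in culture CD71+ samples, against 1662 and 1836 CPM in culture CD71- samples. For 10 microglia markers the sum was 1180 and 1675 CPM in tumour CD71+ samples, against 219.5 and 261.3 CPM in tumour CD71- samples, and 175.4 and 142.9 CPM in culture CD71+ samples, against 77.4 and 78.1 CPM in culture CD71- samples. Of the marker genes tested, 16 of 19 for macrophages, 9 of 10 for microglia, 6 of 10 for oligodendrocytes and astrocytes, 4 of 8 for endothelial and stromal cells and 10 of 14 for dividing cells were higher in tumour CD71+ cells, and 1 endothelial and stromal marker was lower. In culture CD71+ cells 13, 5, 1, 1 and 5 of the same lists, in the same order, were higher. Over all genes tested 26.2% were higher and 17.3% lower in tumour CD71+ cells, and 7.88% higher and 8.36% lower in culture CD71+ cells. The culture counts for oligodendrocytes and astrocytes and for endothelial and stromal cells are near that share, as is the 1 lower marker in the tumour. The microglia genes Sall1 and Siglech and the glial genes Sox10, Olig1, Olig2 and Gfap had 0 counts in all 4 culture samples. Mitochondrial genes took 0.829% and 1.04% of reads in tumour CD71+ samples, 0.413% and 0.202% in tumour CD71- samples, 1.45% and 2.17% in culture CD71+ samples and 7.09% and 12% in culture CD71- samples. The part of other cells, of division and of RNA quality in the members' results was not tested.

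The stretches of DNA just upstream of the members were read from RefSeq's annotation of the mouse build GRCm38.p6, which held 33 transcription starts for 24 of the 31 members. 3 short motifs were searched on both strands in the 250 bases before each start: CACNCCAC, the core of the sterol regulatory element that SREBP binds, the CCAAT box CCAAT, bound by the factor NF-Y, and the E-box CACGTG. The sterol element core lay before 2 of 33 member starts (6.06%), those of Hmgcs1 and Insig1, and before 5.29% of 32851 starts in the whole annotation. A CCAAT box lay before 21 of 33 member starts (63.6%), against 33.8% of all starts. The E-box lay before 6 of 33 member starts (18.2%), against 6.02% of all starts. A match describes these letters in this window only, and some windows lie partly or wholly inside the gene as GENCODE counts it. In Insig1 the sterol element core lay 9 to 2 bases before the RefSeq start, in a stretch that GENCODE counts as part of the gene, so that sequence is not printed.

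The upstream stretches of 5 members are shown as examples of the genes that rose with CD71 and of those that fell. Hmgcs1, Nsdhl and Fasn were higher in CD71+ cells of both the tumour and the culture, and Mvk and Sc5d were lower in CD71+ cells of the tumour. Each line runs 5′ to 3′ over the 250 bases that end just before the RefSeq start, with matches to any of the 3 motifs, read on either strand, in capitals.
Hmgcs1, chr13:119690101-119690350, plus strand: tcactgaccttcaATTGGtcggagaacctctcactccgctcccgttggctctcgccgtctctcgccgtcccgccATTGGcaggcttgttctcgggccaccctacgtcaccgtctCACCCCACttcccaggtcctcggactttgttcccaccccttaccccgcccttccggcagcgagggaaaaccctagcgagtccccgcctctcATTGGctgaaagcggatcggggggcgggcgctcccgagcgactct
Nsdhl, chrX:72918271-72918520, plus strand: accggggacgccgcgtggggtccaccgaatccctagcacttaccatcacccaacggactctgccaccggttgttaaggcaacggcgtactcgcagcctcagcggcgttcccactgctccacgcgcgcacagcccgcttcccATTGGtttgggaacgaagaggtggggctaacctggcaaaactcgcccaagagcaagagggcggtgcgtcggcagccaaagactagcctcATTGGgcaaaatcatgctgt
Fasn, chr11:120824548-120824797, minus strand: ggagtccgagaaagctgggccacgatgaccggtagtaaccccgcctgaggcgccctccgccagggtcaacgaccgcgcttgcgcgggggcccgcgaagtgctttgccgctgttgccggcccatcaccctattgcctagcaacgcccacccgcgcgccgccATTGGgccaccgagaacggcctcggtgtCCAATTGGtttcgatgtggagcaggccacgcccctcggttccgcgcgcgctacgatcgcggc
Mvk, chr5:114444019-114444268, plus strand: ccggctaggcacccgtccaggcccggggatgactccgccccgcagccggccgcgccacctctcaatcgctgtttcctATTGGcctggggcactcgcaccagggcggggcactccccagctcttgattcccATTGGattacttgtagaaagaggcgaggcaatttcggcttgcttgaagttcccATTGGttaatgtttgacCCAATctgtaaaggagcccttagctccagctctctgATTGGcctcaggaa
Sc5d, chr9:42264301-42264550, minus strand: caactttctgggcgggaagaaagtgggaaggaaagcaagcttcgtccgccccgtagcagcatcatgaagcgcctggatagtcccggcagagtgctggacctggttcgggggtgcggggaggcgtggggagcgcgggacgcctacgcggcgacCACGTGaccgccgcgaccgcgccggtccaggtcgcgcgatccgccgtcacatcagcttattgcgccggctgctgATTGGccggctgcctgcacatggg
All 5 stretches hold a CCAAT box or its reverse complement ATTGG, and Mvk holds the most, with 5. In Fasn the run CCAATTGG holds 2 overlapping matches, one on each strand. Hmgcs1 also holds the sterol element core, 136 to 129 bases before the start, and Sc5d an E-box. The examples that rose and the examples that fell in the tumour both carry the CCAAT box in this window, but they are picked examples. Acaca and Elovl6, which rose in both settings, and Fads2, which rose in culture, held no CCAAT box in this window. The window lay wholly inside the gene as GENCODE counts it for Acaca, almost wholly for Fads2 and partly for Elovl6. The stretch before GENCODE's own start of Acaca and Fads2 was thus hardly searched.

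**Figure D1:**
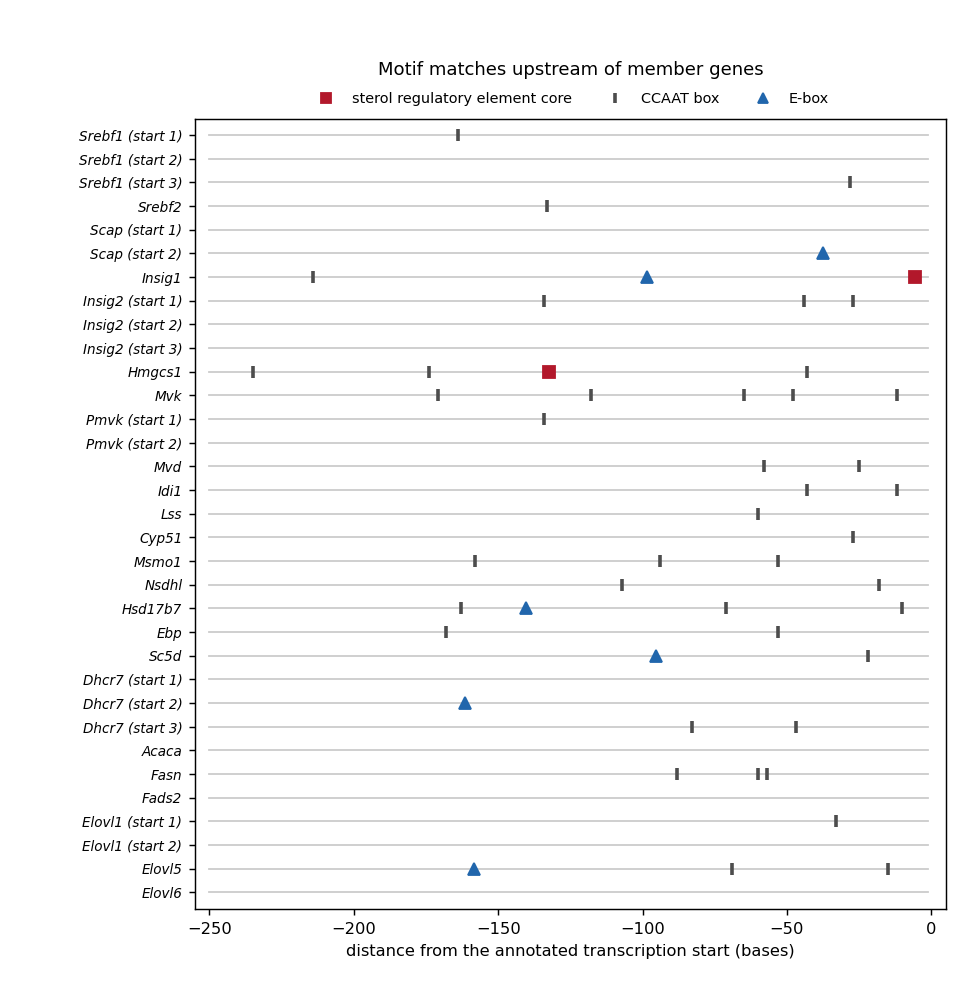
Positions of the 3 motifs in the 250 bases before each of 33 RefSeq starts of 24 members, with 1 line per start and distance from the start in bases on the horizontal axis. CCAAT boxes (bars) lie before 21 starts, E-boxes (triangles) before 6, and the sterol regulatory element core (squares) before 2, those of Insig1 and Hmgcs1.

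More members were higher than lower in CD71+ cells of both sources. In the tumour, 15 of 31 were higher and 2 lower in CD71+ cells, where 26.2% of all genes tested were higher and 17.3% lower. In culture, 18 of 31 were higher and 0 lower in CD71+ cells, where 7.88% of all genes tested were higher and 8.36% lower. No member was lower in culture at an unadjusted p under 0.05 in edgeR (0 of 31), and 0 were lower by DESeq2's Wald test, which called 18 higher. In the tumour DESeq2's Wald test called 13 members higher and 6 lower, adding Srebf2, Fdft1, Stard4 and Elovl5 to those lower. Of all calls in the tumour 60.2% were higher, against 47.3% with DESeq2's size factors, 93.3% with total counts and 99.8% with scaling to the mature neutrophil markers, under which 13, 22 and 27 members were higher and 6, 0 and 0 lower. In culture the shares were 48.5%, 42.3%, 80.9% and 98.3% in the same order, with 18, 18, 25 and 30 members higher and 0 lower throughout. The median log2 fold change of the members was 0.70 in the tumour, against 0.13 over all genes tested, and 0.92 in culture, against 0.03 over all genes tested. Summed over the 31 members, the level was 911.7 and 707.4 CPM in tumour CD71+ samples, against 688.2 and 655.3 CPM in tumour CD71- samples. In culture the sum was 2180 and 2036 CPM in CD71+ samples, against 1258 and 1277 CPM in CD71- samples. Both pairs of sums were higher in CD71+ samples without overlap, and the tumour gap was the narrower. The tumour separation rested on Scd2, at 123 and 93.5 CPM in CD71+ samples, against 31.8 and 23.7 CPM in CD71- samples. Summed by role, the tumour groups overlapped for the SREBP system, sterol steps, sterol carrier and elongases. They did not overlap for the mevalonate steps, fatty acid synthesis and desaturases.

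The 2 comparisons have no sample in common, so their calls can be set side by side. The members higher in both were Hmgcs1, Sqle, Lss, Cyp51, Nsdhl, Dhcr7, Acaca, Fasn, Scd1, Scd2, Fads1 and Elovl6. These 12 are 80% of the members higher in the tumour and 66.7% of those higher in culture. Over all genes tested, the 778 higher in both were 18.6% of those higher in the tumour and 61.8% of those higher in culture. Idi1, Hsd17b7 and Ebp were called higher in the tumour alone, and Insig1, Mvk, Fdft1, Msmo1, Fads2 and Elovl5 in culture alone, which does not by itself show that the effects differ. Mvk was lower in the tumour and higher in culture.

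Of the 15 higher and 2 lower members in the tumour, 10 kept their call whichever of the 8 samples was left out, namely Sqle, Lss, Nsdhl, Sc5d, Dhcr7, Acaca, Fasn, Scd2, Fads1 and Elovl6. There were 9 higher members without tumour CD71- sample 1, with Hmgcs1 (adjusted p = 0.052), Idi1 (0.152), Cyp51 (0.158), Hsd17b7 (0.0594), Ebp (0.131) and Scd1 (0.0622) lost. There were 11 without tumour CD71- sample 2 and 11 without tumour CD71+ sample 1. Idi1, Cyp51, Hsd17b7 and Scd1 were lost in both cases, with adjusted p between 0.103 and 0.31 without tumour CD71- sample 2 and between 0.0927 and 0.611 without tumour CD71+ sample 1, and Ebp was lost without tumour CD71+ sample 2 (0.0564). The lower count was 4 without tumour CD71+ sample 1 and 1 without tumour CD71+ sample 2 or either culture CD71+ sample. In culture 8 of 18 calls were kept through every omission, those of Sqle, Cyp51, Dhcr7, Scd1, Fads1, Fads2, Elovl5 and Elovl6. The culture count was 9 without culture CD71+ sample 1 and 11 without culture CD71+ sample 2, and leaving out a sample makes the lone sample of that group borrow its spread from the other groups. The calls lost without culture CD71+ sample 1 had adjusted p between 0.0527 (Msmo1) and 0.178 (Scd2).

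**Figure D2:**
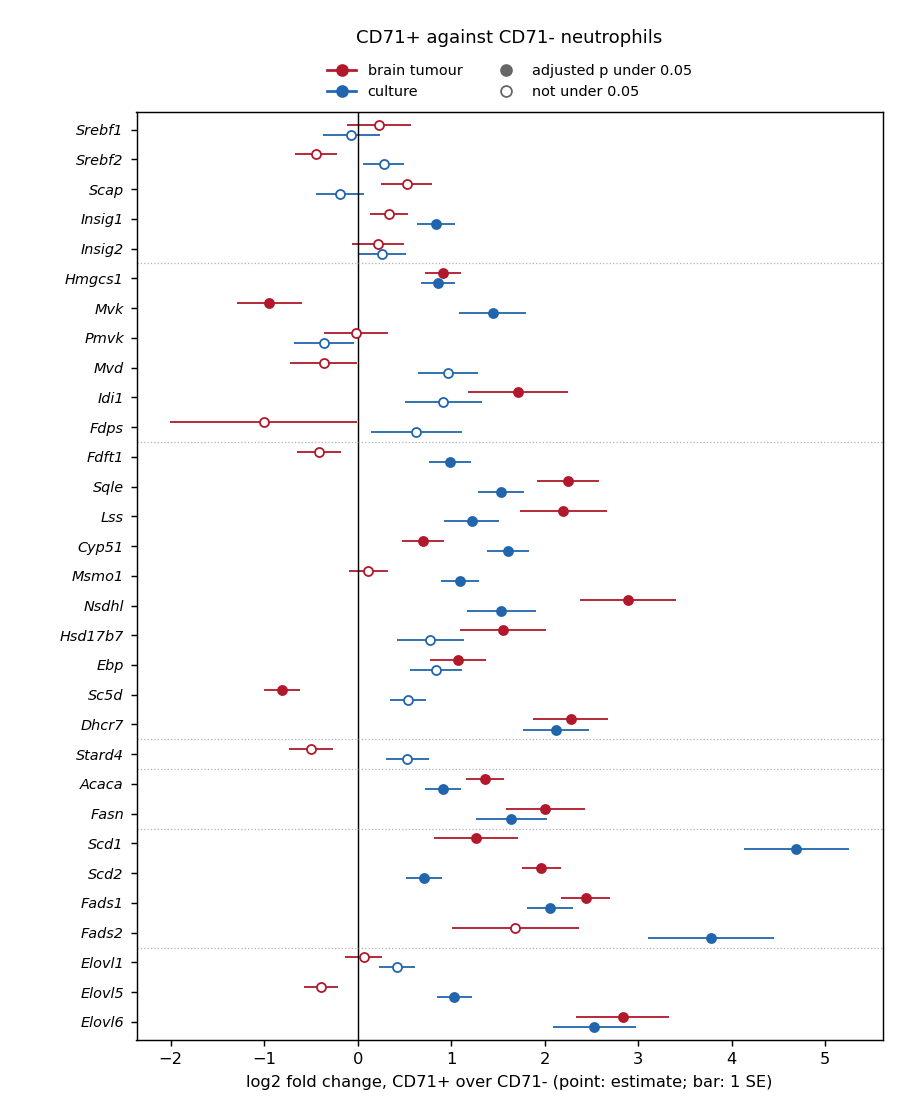
Log2 fold change of CD71+ over CD71- neutrophils for each member, with the tumour (red) above the culture (blue) in each pair and bars of 1 SE, and dotted lines between roles. Filled points passed at an adjusted p under 0.05; Mvk and Sc5d are filled left of zero in the tumour only, and no culture point left of zero is filled.

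Of the 5 genes of the SREBP system itself, 0 passed in the tumour in edgeR, where 26.2% of all genes were higher and 17.3% lower, with 0 at an unadjusted p under 0.05, while DESeq2's Wald test called Srebf2 lower in tumour CD71+ cells (adjusted p = 0.0195). In culture 1 of the 5 was higher and 0 lower, where 7.88% of all genes were higher and 8.36% lower, so a count this small is near the share of all genes. Srebf1, whose protein mainly drives fatty acid genes, had 21.2 and 11.7 CPM in tumour CD71+ samples, against 16.2 and 11.8 CPM in tumour CD71- samples. In culture its level was 52.8 and 64.5 CPM in culture CD71+ samples, against 43.8 and 79.3 CPM in culture CD71- samples. The groups overlapped in both settings. Srebf2, whose protein mainly drives cholesterol genes, had 117 and 76.8 CPM in tumour CD71+ samples, against 154 and 109.9 CPM in tumour CD71- samples. The culture values were 212 and 226 CPM in culture CD71+ samples, against 159 and 202 CPM in culture CD71- samples. The tumour groups overlapped, and the culture groups did not (log2 fold change 0.28 ± 0.22 (SE), adjusted p = 0.427). Scap, the escort protein, had 18.9 and 16.6 CPM in tumour CD71+ samples, against 14.8 and 9.84 CPM in tumour CD71- samples. Its values were 13.9 and 16.7 CPM in culture CD71+ samples, against 14.9 and 20.2 CPM in culture CD71- samples. The tumour groups did not overlap and the culture groups did, but neither difference passed, with log2 fold changes of 0.53 ± 0.27 (SE), adjusted p = 0.13 in the tumour and -0.19 ± 0.26 (SE), adjusted p = 0.665 in culture.

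Insig1, which retains Scap and is itself an SREBP target, had 41.4 and 32.7 CPM in tumour CD71+ samples, against 31.7 and 26.9 CPM in tumour CD71- samples. In cultured cells it had 41.4 and 35.5 CPM in culture CD71+ samples, against 20.02 and 23.1 CPM in culture CD71- samples. The groups did not overlap in either setting, and the difference passed in culture alone, with log2 fold changes of 0.34 ± 0.21 (SE), adjusted p = 0.198 in the tumour and 0.84 ± 0.20 (SE), adjusted p = 0.012 in culture. The test of the difference between the 2 effects did not pass (log2 difference -0.50 ± 0.29 (SE), adjusted p = 0.26). The culture call was lost without either culture CD71+ sample (adjusted p = 0.16 without sample 1 and 0.0515 without sample 2). Insig2, the related retention protein, had 11.9 and 8.28 CPM in tumour CD71+ samples, against 10.1 and 7.34 CPM in tumour CD71- samples. For the cultured cells the values were 20.4 and 18 CPM in culture CD71+ samples, against 16.1 and 15.9 CPM in culture CD71- samples. Its tumour groups overlapped and neither difference passed.

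Among the 6 mevalonate genes, 2 were higher and 1 lower in tumour CD71+ cells, and 2 were higher in culture CD71+ cells. The tumour counts are near the shares of all genes, 26.2% higher and 17.3% lower, and in culture 7.88% of all genes were higher. Hmgcs1, which makes hydroxymethylglutaryl-CoA at the head of the route, had 46.3 and 36.5 CPM in tumour CD71+ samples, against 21.5 and 22.4 CPM in tumour CD71- samples. It had 112 and 102 CPM in culture CD71+ samples, against 53.1 and 64.9 CPM in culture CD71- samples. The CD71+ samples stood above the CD71- samples in both settings, by log2 fold changes of 0.91 ± 0.19 (SE), adjusted p = 0.00209 in the tumour and 0.86 ± 0.18 (SE), adjusted p = 0.00547 in culture. That culture call did not hold without culture CD71+ sample 1 (adjusted p = 0.0802). Idi1, which isomerises the first isoprenoid unit, had 6.83 and 2.35 CPM in tumour CD71+ samples, against 1.26 and 1.52 CPM in tumour CD71- samples. It had 9.03 and 8.09 CPM in culture CD71+ samples, against 5.27 and 3.72 CPM in culture CD71- samples. Tumour CD71+ sample 1 was far above sample 2, and the log2 fold changes were 1.72 ± 0.53 (SE), adjusted p = 0.0188 in the tumour and 0.92 ± 0.41 (SE), adjusted p = 0.149 in culture; without tumour CD71+ sample 1 the tumour value was 0.76, with adjusted p = 0.256.

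Mvk, mevalonate kinase, moved in opposite directions. It had 6.35 and 5.36 CPM in tumour CD71+ samples, against 11.2 and 11.4 CPM in tumour CD71- samples. In culture the levels were 4.33 and 6.53 CPM in culture CD71+ samples, against 1.6 and 2.45 CPM in culture CD71- samples. The groups did not overlap, being lower in CD71+ samples of the tumour and higher in CD71+ samples of the culture. The log2 fold changes were -0.94 ± 0.34 (SE), adjusted p = 0.0388 in the tumour and 1.45 ± 0.36 (SE), adjusted p = 0.0144 in culture. The tumour call was lost without any one of the 4 tumour samples or either culture CD71+ sample, with adjusted p between 0.0615 and 0.1, without a low-count filter (0.0565) and under total-count scaling (0.403), and its sign turned under scaling to mature neutrophil markers (0.15, adjusted p = 0.779). In culture the call was lost without culture CD71- sample 1 (0.0765) or culture CD71+ sample 2 (0.188).

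The remaining mevalonate genes passed in neither setting. Mvd, mevalonate decarboxylase, had 6.25 and 4.24 CPM in tumour CD71+ samples, against 7.54 and 5.96 CPM in tumour CD71- samples. It had 12.7 and 12.3 CPM in culture CD71+ samples, against 4.68 and 8.25 CPM in culture CD71- samples. The tumour groups overlapped, and the culture difference lay just outside the threshold (log2 fold change 0.97 ± 0.32 (SE), adjusted p = 0.0559). Pmvk, phosphomevalonate kinase, averaged 14.1 ± 4.22 CPM in tumour CD71+ and 14.2 ± 6.71 CPM in tumour CD71- samples, and 11.1 ± 0.186 CPM in culture CD71+ and 14.4 ± 4.05 CPM in culture CD71- samples (SD, n = 2 each). Fdps, which makes farnesyl diphosphate, was barely detected in the tumour. It had 5 and 0 counts in tumour CD71+ samples, against 3 and 4 counts in tumour CD71- samples. In culture it had 3.93 and 4.67 CPM in CD71+ samples, against 2.67 and 2.9 CPM in CD71- samples, without overlap but short of the threshold (log2 fold change 0.63 ± 0.49 (SE), adjusted p = 0.419). Its exons overlap those of Gm43738 on the same strand over 1124 bases, so its counts are uncertain.

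Most of the 10 genes from squalene to cholesterol changed with CD71. In tumour CD71+ cells 7 were higher and 1 lower, and in culture CD71+ cells 7 were higher and 0 lower, with 0 lower also at an unadjusted p under 0.05. The shares of all genes were 26.2% higher and 17.3% lower in the tumour, and 7.88% higher and 8.36% lower in culture. The 1 lower gene in the tumour is thus no more than the share of all genes. Sqle, squalene epoxidase, had 13.8 and 8.09 CPM in tumour CD71+ samples, against 2.65 and 1.94 CPM in tumour CD71- samples. It had 53.7 and 48.8 CPM in culture CD71+ samples, against 18.6 and 16.7 CPM in culture CD71- samples. CD71+ samples were several-fold above CD71- samples in both settings, with log2 fold changes of 2.25 ± 0.33 (SE), adjusted p = 0.000189 in the tumour and 1.53 ± 0.25 (SE), adjusted p = 0.00103 in culture. Lss, lanosterol synthase, had 5.96 and 4.33 CPM in tumour CD71+ samples, against 1.81 and 0.416 CPM in tumour CD71- samples. Culture values were 43.2 and 44.4 CPM in culture CD71+ samples, against 15.5 and 22.2 CPM in culture CD71- samples. The log2 fold changes were 2.20 ± 0.46 (SE), adjusted p = 0.00212 in the tumour, where the tumour CD71- samples held 13 and 3 counts, and 1.22 ± 0.29 (SE), adjusted p = 0.0123 in culture. The culture call was lost without either culture CD71+ sample (adjusted p = 0.103 in both cases) or culture CD71- sample 1 (0.0545).

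Nsdhl, a sterol dehydrogenase that helps strip methyl groups from the sterol ring, had 8.18 and 5.36 CPM in tumour CD71+ samples, against 1.4 and 0.416 CPM in tumour CD71- samples. It had 14.8 and 11.2 CPM in culture CD71+ samples, against 3.61 and 5.44 CPM in culture CD71- samples. The groups did not overlap in either setting, and the log2 fold changes were 2.89 ± 0.51 (SE), adjusted p = 0.000638 in the tumour, where the CD71- samples held 10 and 3 counts, and 1.54 ± 0.37 (SE), adjusted p = 0.0122 in culture. The culture call was lost without either culture CD71+ sample (0.172 without sample 1 and 0.0536 without sample 2) or culture CD71- sample 1 (0.0574). Dhcr7, which performs the last reduction to cholesterol on one branch of the route, had 7.69 and 8.56 CPM in tumour CD71+ samples, against 2.09 and 1.25 CPM in tumour CD71- samples. Culture levels were 11.3 and 8.85 CPM in culture CD71+ samples, against 1.9 and 2.81 CPM in culture CD71- samples. The groups stood apart in both settings, with log2 fold changes of 2.28 ± 0.40 (SE), adjusted p = 0.000677 in the tumour and 2.12 ± 0.35 (SE), adjusted p = 0.00123 in culture, and the difference between them did not pass (0.16 ± 0.54 (SE), adjusted p = 0.885). Cyp51, lanosterol demethylase, had 39.4 and 25.9 CPM in tumour CD71+ samples, against 20.5 and 19.7 CPM in tumour CD71- samples. In culture it had 48.8 and 43.8 CPM in culture CD71+ samples, against 15.6 and 14.8 CPM in culture CD71- samples. The log2 fold changes were 0.70 ± 0.23 (SE), adjusted p = 0.0226 in the tumour and 1.61 ± 0.22 (SE), adjusted p = 0.000334 in culture, and the tumour call was lost with DESeq2's Wald test (adjusted p = 0.126).

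Hsd17b7, another enzyme of methyl group removal, had 5.87 and 3.58 CPM in tumour CD71+ samples, against 1.96 and 1.25 CPM in tumour CD71- samples. It had 10.3 and 9.5 CPM in culture CD71+ samples, against 4.26 and 7.43 CPM in culture CD71- samples. The groups did not overlap in either setting, and the log2 fold changes were 1.55 ± 0.46 (SE), adjusted p = 0.0143 in the tumour and 0.78 ± 0.36 (SE), adjusted p = 0.155 in culture. Ebp, a sterol isomerase, had 12.1 and 12.2 CPM in tumour CD71+ samples, against 5.17 and 6.37 CPM in tumour CD71- samples. It had 14.8 and 10.1 CPM in culture CD71+ samples, against 7.05 and 6.89 CPM in culture CD71- samples. Its changes were 1.08 ± 0.30 (SE), adjusted p = 0.011 in the tumour and 0.84 ± 0.28 (SE), adjusted p = 0.0549 in culture on the log2 scale. For neither gene did the difference between the settings pass, with log2 differences of 0.78 ± 0.58 (SE), adjusted p = 0.393 for Hsd17b7 and 0.24 ± 0.41 (SE), adjusted p = 0.739 for Ebp.

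3 genes of these steps were not higher in tumour CD71+ cells. Fdft1, squalene synthase, had 19 and 16.5 CPM in tumour CD71+ samples, against 26 and 21.3 CPM in tumour CD71- samples. It had 34.3 and 28.2 CPM in culture CD71+ samples, against 13.7 and 17.9 CPM in culture CD71- samples. It was higher in culture CD71+ cells (log2 fold change 0.99 ± 0.22 (SE), adjusted p = 0.00865) and did not pass in the tumour (-0.41 ± 0.23 (SE), adjusted p = 0.163), where the CD71+ samples lay below the CD71- samples. The culture call was lost without culture CD71+ sample 1 (0.138), and the exons of Fdft1 overlap those of Ctsb, a cathepsin gene on the other strand, over 774 bases. Msmo1, a sterol methyl oxidase, had 35.1 and 30.9 CPM in tumour CD71+ samples, against 27.2 and 33.7 CPM in tumour CD71- samples. It had 67.7 and 57.9 CPM in culture CD71+ samples, against 33.9 and 24.8 CPM in culture CD71- samples. The tumour groups overlapped, and the log2 fold changes were 0.12 ± 0.21 (SE), adjusted p = 0.686 in the tumour and 1.09 ± 0.20 (SE), adjusted p = 0.00269 in culture. Sc5d, sterol desaturase, had 48.9 and 47.5 CPM in tumour CD71+ samples, against 77.2 and 92 CPM in tumour CD71- samples. Its culture levels were 40.6 and 33.6 CPM in culture CD71+ samples, against 28.8 and 21.9 CPM in culture CD71- samples. It was lower in tumour CD71+ cells without overlap (log2 fold change -0.81 ± 0.19 (SE), adjusted p = 0.00437) and did not pass in culture (0.54 ± 0.19 (SE), adjusted p = 0.0711). Its tumour call was lost under total-count scaling (adjusted p = 0.347), and its sign turned under scaling to mature neutrophil markers (0.28, adjusted p = 0.29). Stard4, which ferries sterol between membranes, had 32.2 and 21.4 CPM in tumour CD71+ samples, against 46.1 and 29.5 CPM in tumour CD71- samples. It had 86.9 and 81.9 CPM in culture CD71+ samples, against 56.3 and 60.5 CPM in culture CD71- samples. It passed in neither setting, and the tumour groups overlapped.

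Both genes of fatty acid synthesis itself were higher in CD71+ cells of the tumour and of the culture. Acaca, acetyl-CoA carboxylase, which makes malonyl-CoA, had 36 and 31.3 CPM in tumour CD71+ samples, against 12 and 14.1 CPM in tumour CD71- samples. It had 42.6 and 44.5 CPM in culture CD71+ samples, against 23.8 and 22.4 CPM in culture CD71- samples. The CD71+ samples lay above the CD71- samples in each setting, with log2 fold changes of 1.36 ± 0.20 (SE), adjusted p = 0.000223 in the tumour and 0.91 ± 0.19 (SE), adjusted p = 0.00509 in culture. Fasn, fatty acid synthase, had 48.7 and 24.2 CPM in tumour CD71+ samples, against 11.4 and 6.65 CPM in tumour CD71- samples. Its values were 61.9 and 72.4 CPM in culture CD71+ samples, against 14.8 and 28.5 CPM in culture CD71- samples. The groups did not overlap in either setting, though tumour CD71+ sample 1 lay well above sample 2, and the log2 fold changes were 2.01 ± 0.42 (SE), adjusted p = 0.00383 in the tumour and 1.65 ± 0.38 (SE), adjusted p = 0.0162 in culture. The culture calls of both genes were lost without either culture CD71+ sample, with adjusted p of 0.0575 and 0.0679 for Acaca and 0.0621 and 0.0819 for Fasn without samples 1 and 2, and that of Fasn without culture CD71- sample 1 (0.0539).

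The desaturases, which place double bonds in fatty acids, included the members with the largest changes in culture, Scd1 and Fads2. Of the 4, 3 were higher in tumour CD71+ cells and 4 in culture CD71+ cells, where 26.2% and 7.88% of all genes were higher. Scd1, a stearoyl-CoA desaturase, had 30.3 and 9.98 CPM in tumour CD71+ samples, against 10.9 and 5.82 CPM in tumour CD71- samples. In cultured cells its levels were 20.6 and 18.7 CPM in culture CD71+ samples, against 0.77 and 0.725 CPM in culture CD71- samples. The culture groups stood far apart, while the tumour groups overlapped since tumour CD71+ sample 2 lay below tumour CD71- sample 1. The log2 fold changes were 1.27 ± 0.45 (SE), adjusted p = 0.0398 in the tumour and 4.69 ± 0.56 (SE), adjusted p = 0.000258 in culture. The tumour value was 0.26 without tumour CD71+ sample 1 (adjusted p = 0.611), and that call was also lost without tumour CD71- sample 1 (0.0622) or 2 (0.31), without any one of the 4 culture samples (0.0508 to 0.0555) and with DESeq2's Wald test (0.0524).

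Scd2, the second stearoyl-CoA desaturase, had 123 and 93.5 CPM in tumour CD71+ samples, against 31.8 and 23.7 CPM in tumour CD71- samples. It had 972 and 869 CPM in culture CD71+ samples, against 611 and 512 CPM in culture CD71- samples. It was the most abundant member per length of transcript in culture, and CD71+ samples were above CD71- samples in both settings. The log2 fold changes were 1.97 ± 0.21 (SE), adjusted p = 1.53e-05 in the tumour and 0.71 ± 0.19 (SE), adjusted p = 0.022 in culture. The culture call was lost without culture CD71+ sample 1 (adjusted p = 0.178) or 2 (0.0722) and without culture CD71- sample 2 (0.0752). Both genes lie on chromosome 19 of mm10, Scd1 at 44394455 to 44407879 on the minus strand and Scd2 at 44293674 to 44306864 on the plus strand in GENCODE M21.

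Fads1, a desaturase that makes arachidonic acid, had 24.7 and 24.4 CPM in tumour CD71+ samples, against 4.61 and 4.43 CPM in tumour CD71- samples. It had 15.5 and 15.2 CPM in culture CD71+ samples, against 3.55 and 3.81 CPM in culture CD71- samples. The replicates lay close together, and CD71+ samples were higher by log2 fold changes of 2.44 ± 0.26 (SE), adjusted p = 1.75e-05 in the tumour and 2.06 ± 0.25 (SE), adjusted p = 0.000133 in culture. Fads2, the desaturase at the head of that route, had 11.3 and 2.17 CPM in tumour CD71+ samples, against 2.65 and 1.52 CPM in tumour CD71- samples. It had 11.5 and 13.7 CPM in culture CD71+ samples, against 1.18 and 0.544 CPM in culture CD71- samples. It was higher in culture CD71+ cells (log2 fold change 3.78 ± 0.68 (SE), adjusted p = 0.00341) and did not pass in the tumour (1.69 ± 0.68 (SE), adjusted p = 0.0639), where CD71+ sample 2 lay below CD71- sample 1. The difference between the 2 effects did not pass either (log2 difference -2.09 ± 0.97 (SE), adjusted p = 0.171).

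Of the 3 elongases, 1 was higher in tumour CD71+ cells and 2 in culture CD71+ cells. The tumour count is near the 26.2% of all genes that were higher, and in culture 7.88% of all genes were higher. Elovl6, which lengthens palmitate, had 7.6 and 4.42 CPM in tumour CD71+ samples, against 0.977 and 0.693 CPM in tumour CD71- samples. It had 4.45 and 4.39 CPM in culture CD71+ samples, against 0.711 and 0.816 CPM in culture CD71- samples. CD71+ samples were higher in both settings, with log2 fold changes of 2.84 ± 0.50 (SE), adjusted p = 0.000633 in the tumour and 2.53 ± 0.45 (SE), adjusted p = 0.00188 in culture. Only the CD71+ groups had both samples above the count minimum, so Elovl6 entered the tests through the groups where it is high. Elovl5, which lengthens polyunsaturated fatty acids, had 83.3 and 92.1 CPM in tumour CD71+ samples, against 97.2 and 133 CPM in tumour CD71- samples. Its culture values were 98.6 and 86 CPM in culture CD71+ samples, against 47.6 and 42.4 CPM in culture CD71- samples. It was higher in culture CD71+ cells (log2 fold change 1.03 ± 0.19 (SE), adjusted p = 0.00207) and did not pass in the tumour (-0.39 ± 0.19 (SE), adjusted p = 0.101), where the CD71+ samples lay below the CD71- samples. Elovl1, which lengthens saturated fatty acids for sphingolipids, averaged 29.9 ± 0.527 CPM in tumour CD71+ and 28.6 ± 3.09 CPM in tumour CD71- samples, and 30.9 ± 3.62 CPM in culture CD71+ and 23.1 ± 0.882 CPM in culture CD71- samples (SD, n = 2 each). It passed in none of the 5 comparisons.

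**Figure D3:**
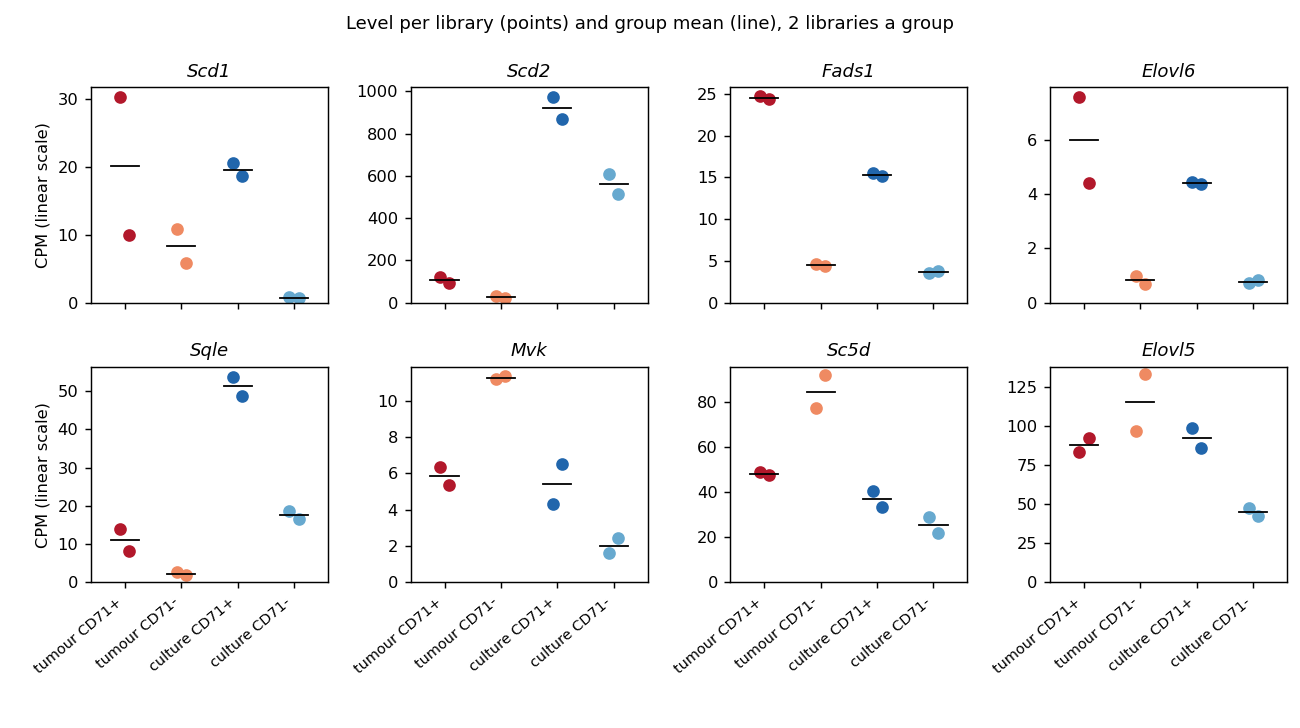
Levels in CPM, on linear axes from 0, of 8 members in each sample (points) with the group mean (line), in the order tumour CD71+, tumour CD71-, culture CD71+ and culture CD71-. Fads1, Elovl6 and Sqle are higher in CD71+ samples of both settings, Mvk and Sc5d are highest in tumour CD71- samples, and Scd2 is highest in culture.

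The test of the difference asked which members responded to CD71 differently in the tumour and in culture. Of the 31, 1 had a higher effect in the tumour and 7 a lower one, where 10.8% of all genes tested had a higher effect and 4.71% a lower one. The higher one was Scd2, with a log2 difference of 1.25 ± 0.28 (SE), adjusted p = 0.00971. The lower ones were Scd1 (-3.42 ± 0.73 (SE), adjusted p = 0.00989), Mvk (-2.39 ± 0.50 (SE), adjusted p = 0.0067), Elovl5 (-1.43 ± 0.26 (SE), adjusted p = 0.00345), Fdft1 (-1.40 ± 0.32 (SE), adjusted p = 0.0112), Sc5d (-1.35 ± 0.27 (SE), adjusted p = 0.00574), Stard4 (-1.03 ± 0.33 (SE), adjusted p = 0.0483) and Msmo1 (-0.98 ± 0.29 (SE), adjusted p = 0.0378). The median difference was 0.05 for the members, against 0.18 over all genes tested. The calls of Sc5d, Scd1 and Elovl5 were kept whichever sample was left out. Of the others, Scd2 was lost without culture CD71+ sample 2 (adjusted p = 0.053) or tumour CD71- sample 2 (0.0893), Mvk without culture CD71+ sample 2 (0.0562) and Fdft1 without culture CD71+ sample 1 (0.078). Msmo1 was lost without any sample except culture CD71- sample 1 and tumour CD71- sample 1 (0.0556 to 0.171), and Stard4 without any sample except tumour CD71- sample 2 and tumour CD71+ sample 1 (0.0662 to 0.151). The lower count was 4 without either culture CD71+ sample.

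The ratio of the 2 stearoyl-CoA desaturases also differed between the settings. Per kilobase of exon, Scd2 exceeded Scd1 by 3.65 and 8.4 times in tumour CD71+ samples, and by 2.62 and 3.65 times in tumour CD71- samples. In culture it exceeded Scd1 by 42.3 and 41.7 times in CD71+ samples, and by 711 and 632 times in CD71- samples. The Scd1 counts behind the culture CD71- ratios were 13 and 8. All 4 tumour ratios lay below the 4 culture ratios. In the tumour the CD71+ and CD71- samples met at 3.65, and in culture the CD71+ ratios lay far below the CD71- ratios.

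Against the same CD71 fraction grown in culture, most members that changed were lower in the tumour. Among CD71+ samples, 1 member was higher and 14 were lower in the tumour, where 30.3% of all genes tested were higher and 27.6% lower. Among CD71- samples, 5 were higher and 13 lower in the tumour, where 30.3% of all genes tested were higher and 36.8% lower. The share of lower members among CD71- samples was thus close to that of all genes. Medians of the log2 fold changes were -0.88 for members and -0.08 for all genes in CD71+ samples, and -0.45 for members and -0.28 for all genes in CD71- samples. As shares of all reads, unscaled, the 31 members made up 0.0809% and 0.0674% in tumour CD71+, 0.0414% and 0.0423% in tumour CD71-, 0.316% and 0.304% in culture CD71+ and 0.154% and 0.147% in culture CD71- samples. The 10 members lower in the tumour in both fractions were Srebf1, Insig2, Hmgcs1, Fdps, Sqle, Lss, Nsdhl, Hsd17b7, Stard4 and Scd2. The share of all genes lower in both fractions is not given here, so this count cannot be set against it.

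The calls between tumour and culture moved with the scaling. Scaling by total counts shifted the median of all genes by -0.68 among CD71+ and -0.93 among CD71- samples, and scaling to the mature neutrophil markers by -2.34 and -2.39. Under total counts 24 and 23 members were lower in the tumour among CD71+ and CD71- samples, and under mature neutrophil scaling 31 and 28. Of all calls 52.3% were higher among CD71+ and 45.1% among CD71- samples, against 29.3% and 25.3% with total counts and 10.5% and 9.58% under mature neutrophil scaling. Of the 25 mature neutrophil markers, 20 were higher and 3 lower in the tumour among CD71+ samples, and 18 were higher and 3 lower among CD71- samples. Scaling to these markers used their summed counts. Slfn4, Hdc and Mxd1 averaged 14470, 10060 and 7866 CPM in tumour CD71- samples, against 231, 16.2 and 717 CPM in culture CD71- samples. Between tumour and culture that scaling thus leaned on these few genes. Of 10 microglia markers, 10 were higher among CD71+ samples, and 7 were higher and 1 lower among CD71- samples. The part of these cell types in the members' results was not tested.

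Scd2, the most abundant member in culture, was lower in the tumour, with log2 fold changes for tumour over culture of -3.08 ± 0.21 (SE), adjusted p = 2.61e-08 in CD71+ and -4.34 ± 0.22 (SE), adjusted p = 1.46e-09 in CD71- samples. Lss was lower too, with -3.09 ± 0.33 (SE), adjusted p = 2.83e-06 in CD71+ and -4.07 ± 0.42 (SE), adjusted p = 1.68e-06 in CD71- samples. For Sqle the values were -2.22 ± 0.26 (SE), adjusted p = 6.15e-06 in CD71+ and -2.94 ± 0.32 (SE), adjusted p = 2.3e-06 in CD71- samples. Hmgcs1 had log2 fold changes of -1.37 ± 0.18 (SE), adjusted p = 2.4e-05 in CD71+ and -1.42 ± 0.19 (SE), adjusted p = 1.83e-05 in CD71- samples. The tumour and culture samples of a fraction did not overlap for any of the 4 genes. These 4 kept both calls whichever sample was left out.

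Of the 5 regulators 3 were lower in the tumour among CD71+ samples, where 27.6% of all genes were lower. Among CD71- samples 2 of the 5 were lower, near the 36.8% of all genes. Srebf1 was lower in the tumour in both fractions, with log2 fold changes of -1.84 ± 0.32 (SE), adjusted p = 0.000425 in CD71+ and -2.13 ± 0.34 (SE), adjusted p = 0.000134 in CD71- samples. Srebf2 was lower in CD71+ samples (-1.18 ± 0.22 (SE), adjusted p = 0.000494) and did not pass in CD71- samples (-0.45 ± 0.22 (SE), adjusted p = 0.0844). Insig2 was lower in both, with -0.93 ± 0.26 (SE), adjusted p = 0.00711 in CD71+ and -0.88 ± 0.27 (SE), adjusted p = 0.011 in CD71- samples, though the first call was lost without culture CD71+ sample 1 (0.0714) or tumour CD71+ sample 2 (0.0739) and the second without tumour CD71- sample 2 (0.19). Insig1 and Scap passed in neither fraction. Exons of Srebf1 overlap Rai1 on the other strand over 109 bases.

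Other members were lower in the tumour in at least 1 fraction. In both fractions these were Stard4 (-1.66 in CD71+ and -0.63 in CD71- samples), Nsdhl (-0.94 and -2.30), Hsd17b7 (-1.07 and -1.85) and Fdps, whose tumour counts were 0 to 5. In CD71+ samples alone they were Mvd (-1.25), Msmo1 (-0.93) and Fdft1 (-0.82), and in CD71- samples alone Idi1 (-1.70), Acaca (-0.82) and Fasn (-1.25). Among CD71+ samples the lower count was 9 without tumour CD71+ sample 2, where Insig2, Mvd (adjusted p = 0.0632), Fdft1 (0.0612), Nsdhl (0.239) and Hsd17b7 (0.173) were lost. Fdft1, Nsdhl and Hsd17b7 were lost without culture CD71+ sample 1 as well (0.0895, 0.268 and 0.122), and Nsdhl and Hsd17b7 without culture CD71+ sample 2 (0.079 and 0.0808). Among CD71- samples the lower count was 7 without tumour CD71- sample 2, where Insig2, Idi1 (0.0752), Fdps (0.0535), Hsd17b7 (0.0587), Stard4 (0.53) and Fasn (0.211) were lost. Idi1, Fdps and Acaca were lost without tumour CD71- sample 1 (0.124, 0.0822 and 0.0925), Idi1 without culture CD71- sample 1 (0.0619), Stard4 and Fasn without culture CD71- sample 2 (0.0822 and 0.151), and Stard4 without tumour CD71+ sample 2 (0.0676). With DESeq2's Wald test, Nsdhl was lost among CD71+ samples (0.0715), and Insig2 and Stard4 among CD71- samples (0.0651 and 0.187).

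A few members were higher in the tumour. Among CD71- samples Scd1 was higher by 3.46 ± 0.59 (SE), adjusted p = 0.000263, Mvk by 2.50 ± 0.37 (SE), adjusted p = 4.39e-05, Sc5d by 1.73 ± 0.20 (SE), adjusted p = 3.73e-06, Elovl5 by 1.35 ± 0.19 (SE), adjusted p = 2.43e-05 and Fdft1 by 0.59 ± 0.23 (SE), adjusted p = 0.0371, all as log2 fold changes of tumour over culture. Mvk and Scd1 lost their calls under mature neutrophil scaling (adjusted p = 0.853 and 0.0948), and Elovl5 with total counts (0.0712). Under mature neutrophil scaling Sc5d, Elovl5 and Fdft1 turned to lower in the tumour (-0.66, -1.05 and -1.83), and Fdft1 turned under total counts too (-0.34, adjusted p = 0.18). The call of Fdft1 was also lost without culture CD71- sample 1 (0.18), tumour CD71- sample 1 (0.086) or either culture CD71+ sample (0.0637 and 0.0616). Among CD71+ samples Fads1 alone was higher (0.68 ± 0.23 (SE), adjusted p = 0.0191), and this was lost without either culture CD71+ sample (0.121 and 0.135), without tumour CD71+ sample 1 (0.0575) and under total counts (0.994), with a turn to -1.66 under mature neutrophil scaling. Scd1 did not pass among CD71+ samples (0.04 ± 0.41 (SE), adjusted p = 0.948), but without tumour CD71+ sample 1 it was lower in the tumour (-0.98, adjusted p = 0.0416).

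**Figure D4:**
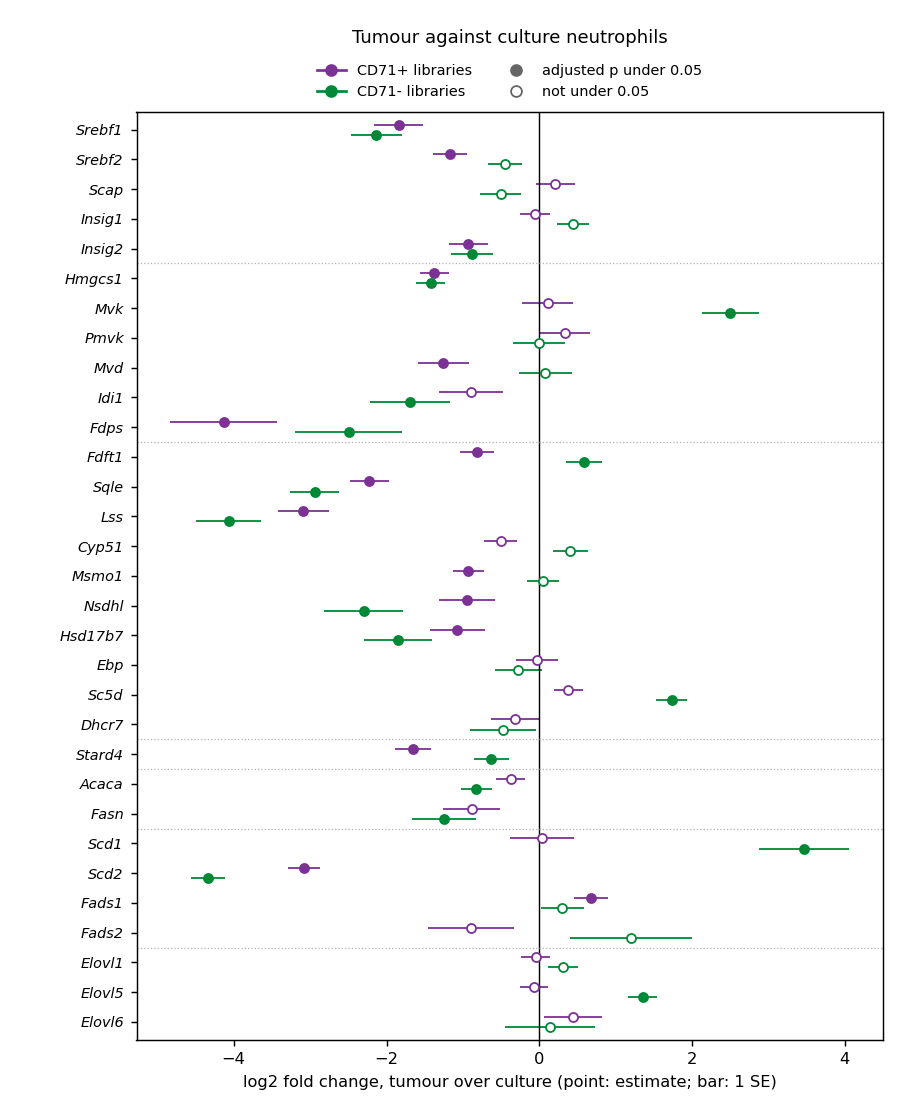
Log2 fold change of tumour over culture for each member, with CD71+ samples (purple) above CD71- samples (green) in each pair, and bars of 1 SE. Filled points passed at an adjusted p under 0.05; Scd2, Lss, Sqle and Fdps lie furthest to the left, and Scd1, Mvk, Sc5d and Elovl5 lie to the right in CD71- samples.

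Per kilobase of exon, which allows levels of different genes to be compared, the members ran over a wide range. In culture CD71+ samples Scd2 was highest at 168 ± 13.3 CPM per kilobase, ahead of Srebf2 at 30.5 ± 1.42, Elovl5 at 26.2 ± 2.54 and Hmgcs1 at 23.3 ± 1.44 (SD, n = 2 each). Each of these lay further from Scd2 than the spread of either, while Srebf2 lay close to Elovl5, and Elovl5 to Hmgcs1. In tumour CD71+ samples the order began with Elovl5 at 24.9 ± 1.78 and Scd2 at 19.9 ± 3.86, which differed by little more than their spread, then Srebf2 at 13.5 ± 3.97. In tumour CD71- samples Elovl5 led at 32.7 ± 7.22, ahead of Srebf2 at 18.4 ± 4.34 and Sc5d at 17.4 ± 2.15, and Scd2 stood at 5.08 ± 1.05. The lowest member was Fdps in tumour samples, at 0.0571 ± 0.0808 in CD71+ and 0.116 ± 0.0227 in CD71- samples.

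**Figure D5:**
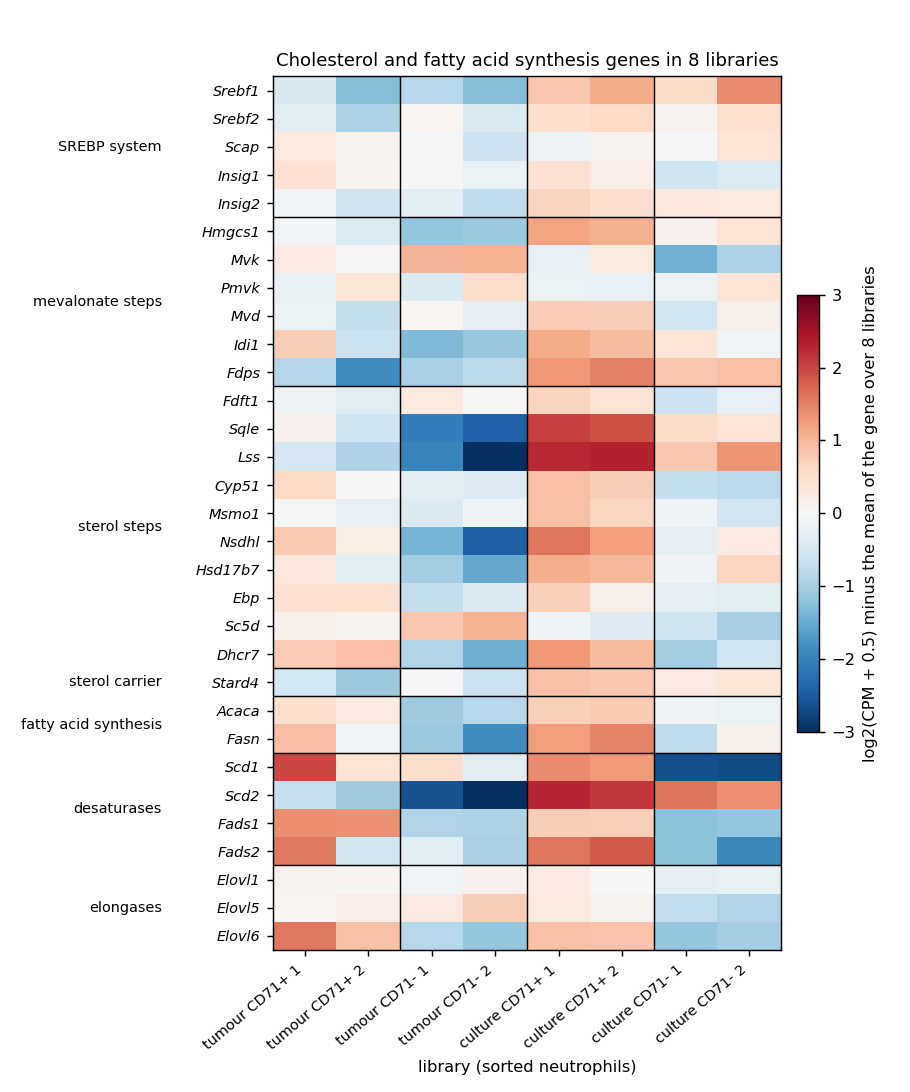
Level of each member in each of 8 samples, as log2(CPM + 0.5) minus the mean of that gene over the 8 samples, with red above and blue below that mean. Members are in order of role down the page, and samples run from tumour CD71+ on the left to culture CD71- on the right; the culture CD71+ columns are red for most members and the tumour CD71- columns blue for most, while Mvk and Sc5d are red in the tumour CD71- columns.

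Genes around these routes were followed in 4 further lists. Both SREBP cleavage proteases were higher in tumour CD71+ cells, Mbtps1 by 0.85 ± 0.17 (SE), adjusted p = 0.00172 and Mbtps2 by 1.72 ± 0.27 (SE), adjusted p = 0.000329 on the log2 scale, and neither passed in culture. Mbtps2 had 15.5 and 14.9 CPM in tumour CD71+ samples, against 4.75 and 4.43 CPM in tumour CD71- samples. It had 34.5 and 29.8 CPM in culture CD71+ samples, against 27.3 and 18.6 CPM in culture CD71- samples. Exons of Mbtps2 overlap those of Yy2 on the same strand over 2867 bases, so its counts are uncertain. Both proteases were lower in the tumour than in culture in both fractions, with log2 fold changes for Mbtps1 of -1.11 ± 0.17 (SE), adjusted p = 6.89e-05 in CD71+ and -2.17 ± 0.18 (SE), adjusted p = 1.21e-07 in CD71- samples.

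Among 7 other sterol and isoprenoid enzymes tested, 2 were lower in tumour CD71+ cells and 1 was lower in culture CD71+ cells. Over all genes 17.3% were lower in the tumour and 8.36% in culture, so counts this small are near those shares. Lbr, a lamin receptor that also reduces sterols, was lower in CD71+ cells, with log2 fold changes of -0.99 ± 0.16 (SE), adjusted p = 0.000409 in the tumour and -1.003 ± 0.16 (SE), adjusted p = 0.00101 in culture. Aacs, acetoacetyl-CoA synthetase, was lower in tumour CD71+ cells (-0.87 ± 0.28 (SE), adjusted p = 0.0218), and Acat2, a thiolase that feeds the mevalonate route, was higher in culture CD71+ cells (1.03 ± 0.26 (SE), adjusted p = 0.0165).

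Of 16 further genes of fatty acid synthesis and its supply that were tested, 7 were higher and 2 lower in tumour CD71+ cells, and 3 were higher and 0 lower in culture CD71+ cells. The shares of all genes were 26.2% higher and 17.3% lower in the tumour, and 7.88% higher and 8.36% lower in culture. Mlxipl, the carbohydrate response factor ChREBP, had 20.9 and 29.9 CPM in tumour CD71+ samples, against 3.63 and 1.52 CPM in tumour CD71- samples. In culture it held 3 and 6 counts in CD71+ samples, against 4 and 6 counts in CD71- samples. Its log2 fold change in the tumour was 3.30 ± 0.43 (SE), adjusted p = 8.71e-05. Thrsp, a lipogenic protein, had 1.54 and 1.13 CPM in tumour CD71+ samples (16 and 12 counts), and 0 counts in the other 6 samples. Acss2, acetyl-CoA synthetase, and Acsl1, an acyl-CoA synthetase, were lower in tumour CD71+ cells, with log2 fold changes of -1.24 ± 0.27 (SE), adjusted p = 0.00273 for Acss2 and -1.04 ± 0.18 (SE), adjusted p = 0.000508 for Acsl1. Among genes of this list that passed in culture CD71+ cells the largest rises were Hsd17b12, a reductase of fatty acid elongation, at 1.58 ± 0.21 (SE), adjusted p = 0.000274, and Acsl5 at 0.60 ± 0.17 (SE), adjusted p = 0.0241. Acly, which supplies cytosolic acetyl-CoA, was lower in the tumour than in culture, with log2 fold changes of -1.52 ± 0.18 (SE), adjusted p = 7.18e-06 in CD71+ and -2.73 ± 0.19 (SE), adjusted p = 2.48e-08 in CD71- samples.

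Of 11 genes of oxysterol sensing and sterol disposal, 4 were higher and 4 lower in tumour CD71+ cells, and 6 were higher and 1 lower in culture CD71+ cells. Over all genes 26.2% were higher and 17.3% lower in the tumour, and 7.88% were higher and 8.36% lower in culture, so that the 1 lower gene in culture is near the share of all genes. Tmem97, a sterol-regulated membrane protein, had 3.85 and 3.29 CPM in tumour CD71+ samples, against 0.419 and 0.416 CPM in tumour CD71- samples, the last of these resting on 3 counts each. Cyp27a1, a sterol hydroxylase of macrophages and liver, had 9.81 and 11.5 CPM in tumour CD71+ samples, against 1.4 and 1.39 CPM in tumour CD71- samples. It had 0.915 and 1.24 CPM in culture CD71+ samples, against 0.178 and 0.272 CPM in culture CD71- samples, the last of these from 3 counts each. Both genes were higher in CD71+ cells of both settings, with culture log2 fold changes of 1.32 ± 0.34 (SE), adjusted p = 0.0169 for Tmem97 and 2.27 ± 0.57 (SE), adjusted p = 0.0143 for Cyp27a1. Nr1h2, an oxysterol receptor, and Soat1, which esterifies cholesterol, were lower in tumour CD71+ cells, with log2 fold changes of -1.07 ± 0.27 (SE), adjusted p = 0.00648 for Nr1h2 and -0.66 ± 0.16 (SE), adjusted p = 0.00501 for Soat1, and Mylip, which degrades lipoprotein receptors, was lower in culture CD71+ cells (-0.83 ± 0.17 (SE), adjusted p = 0.00413). Abca1, a cholesterol exporter, had 1874 and 1788 CPM in tumour CD71+ samples, against 2869 and 2449 CPM in tumour CD71- samples. It had 116 and 92.4 CPM in culture CD71+ samples, against 77.5 and 54.8 CPM in culture CD71- samples. It was higher in the tumour than in culture by 4.13 ± 0.22 (SE), adjusted p = 3.3e-09 in CD71+ and 5.33 ± 0.24 (SE), adjusted p = 4.22e-10 in CD71- samples, the opposite direction to Acly, Scd2 and Sqle.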

How the data were processed

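Total RNA from 8 sorted neutrophil samples was sequenced after ribosomal RNA removal with a stranded kit, per the labels' protocols. The deposited table holds whole-number counts of reads per gene for 55450 genes, not normalized. The submitters' processing notes name FastQC, cutadapt, STAR, featureCounts, DESeq2 and the mm10 build; their versions and the strand setting are not given in the sources used here, so exons shared with a gene on the other strand leave those counts uncertain.

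The 31 members and all lists were chosen with earlier results of these data known. Genes were kept by filterByExpr (minimum count 10, about 0.847 CPM in 2 samples), which left 15975. Libraries were scaled by TMM, and 5 comparisons were tested in 1 fit of all 8 samples with edgeR's quasi-likelihood test (edgeR 4.0.16, R 4.3.3, limma 3.58.1), adjusted by Benjamini-Hochberg. The common biological coefficient of variation was 0.19 with 4 residual degrees of freedom. On simulated counts for the genes tested, 25 of 100 changes of 1 and 71 of 100 changes of 2 on the log2 scale were recovered in a comparison of 2 against 2. Only those randomly drawn genes were changed there, whereas 6951 genes were called in the tumour CD71 comparison. The adjusted threshold was thus stricter in the simulation, and its shares are not the power of the tests reported here. Zero-count limits rest on 3 counts and cover counting error only. Replicates were compared by chi-square and none agreed within sampling noise. Alternatives were DESeq2 1.42.0 (its size factors and its Wald test), total counts, scaling to mature neutrophil markers, no filter, a replicate block, only the 4 samples compared, and leaving out each sample.

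Named were all 31 members, with values per sample for those that passed in any comparison and for the 5 regulators; Tfrc; and from each related list the 2 largest rises and 2 largest falls among genes that passed in a comparison. A result among the other sterol enzymes is not reported here. CPM per kilobase divides by the union of exons in GENCODE M21, whose 55450 gene identifiers and names all matched the table. Figures were drawn with matplotlib 3.10.9.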

Additional observations from a re-analysis of the deposited data

Results flagged for a closer look

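For 8 members the response to CD71 differed between the tumour and the culture by the test of the difference in edgeR's quasi-likelihood fit, as log2 differences of tumour minus culture. Scd2 had the one positive difference, 1.25, and was higher in CD71+ samples of both settings. Scd1 had the most negative, -3.42, with a culture side that rests on 13 and 8 counts in the culture CD71- samples. For Mvk the difference was -2.39, with CD71+ samples below CD71- samples in the tumour and above them in culture. The same crossing of every sample was seen for Sc5d (-1.35), Fdft1 (-1.40) and Elovl5 (-1.43), but unlike Mvk each had a side that did not pass. In edgeR's test these were Sc5d in culture (adjusted p = 0.0711), and Fdft1 (0.163) and Elovl5 (0.101) in the tumour. The tumour signs of Mvk, Sc5d, Fdft1 and Elovl5 turned under scaling to mature neutrophil markers. The share of all genes that cross this way is not given here. Stard4 (-1.03) and Msmo1 (-0.98) were separated in culture and overlapped in the tumour, and their adjusted p-values lay nearest the threshold, at 0.0483 and 0.0378. With scaling to total counts those of Msmo1 and Stard4 no longer passed (adjusted p = 0.116 and 0.0862).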

How the results depend on the processing

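Of the calls among members, 9 of 17 in the tumour CD71 comparison, 8 of 18 in the culture one, 3 of 8 in the difference between them, 9 of 15 between tumour and culture CD71+ samples and 7 of 18 between tumour and culture CD71- samples were kept under every alternative run. With each sample left out in turn, members higher and lower with CD71 ranged from 9 to 15 and from 1 to 4 in the tumour, and from 9 to 19 and 0 to 0 in culture. For the difference they ranged from 0 to 1 higher and 4 to 9 lower, for tumour over culture from 0 to 1 and 9 to 19 among CD71+ samples, and from 4 to 8 and 7 to 14 among CD71- samples. The cause of these shifts was not tested. The count of members lower in tumour CD71+ cells was 6 with DESeq2's size factors and with its Wald test, 0 with total counts and with mature neutrophil scaling, and 1 without a filter and with the replicate block. Members higher under mature neutrophil scaling were 27 in the tumour and 30 in culture. The difference had 11 lower members without a filter. Among CD71+ samples, 0 members were higher in the tumour with total counts, mature neutrophil scaling or no filter, and 24 and 31 were lower with the first 2 of these. Among CD71- samples, members higher in the tumour were 8 with DESeq2's size factors and Wald test, 3 with total counts and 0 with mature neutrophil scaling, and those lower were 23 and 28 with the last 2.

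Total counts shifted the median log2 fold change of all genes by 0.56 (tumour CD71), 0.31 (culture CD71), 0.25 (their difference), -0.68 (CD71+ by origin) and -0.93 (CD71- by origin). DESeq2's size factors shifted it by -0.22, -0.05, -0.17, 0.07 and 0.24 in the same order, and mature neutrophil scaling by 1.09, 1.04, 0.05, -2.34 and -2.39. Changes in sign where neither the main nor the alternative result was called are not listed. Of the other changes in sign, 26 came with mature neutrophil scaling. In the tumour CD71 comparison these were Srebf2 (0.65), Mvk (0.15), Pmvk (1.07), Fdft1 (0.68), Sc5d (0.28), Stard4 (0.60) and Elovl5 (0.70), and in culture Srebf1 (0.97) and Scap (0.85). For tumour over culture among CD71+ samples they were Scap (-2.14), Mvk (-2.26), Pmvk (-2.001), Sc5d (-1.95), Scd1 (-2.30), Fads1 (-1.66) and Elovl6 (-1.90). Among CD71- samples they were Insig1 (-1.96), Mvd (-2.34), Fdft1 (-1.83), Cyp51 (-1.995), Msmo1 (-2.34), Sc5d (-0.66), Fads1 (-2.10), Elovl1 (-2.10), Elovl5 (-1.05) and Elovl6 (-2.22). Another 6 came with total counts among CD71- samples, Insig1 (-0.48), Mvd (-0.84), Fdft1 (-0.34), Cyp51 (-0.53), Msmo1 (-0.88) and Elovl1 (-0.62), and 1, Scd1 among CD71+ samples (-0.98), without tumour CD71+ sample 1, against 0.66 without tumour CD71+ sample 2.

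Deviations of same-numbered samples correlated between -0.138 and 0.0716 over the 6 pairs of groups. This shows no shared shift by sample number, but it cannot settle whether the numbers pair the samples. With the replicate block 15 members were higher and 1 lower with CD71 in the tumour and 18 higher in culture, with Mvk no longer called in the tumour (adjusted p = 0.0544). The difference then had 1 higher and 6 lower, tumour over culture 1 and 14 among CD71+ and 4 and 13 among CD71- samples. Depth limits Idi1, Fdps, Sqle, Lss, Nsdhl, Hsd17b7, Dhcr7, Scd1, Fads2 and Elovl6, which had under 20 counts in at least 1 sample.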
